A study of Mus musculus with 22 samples.

Results

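A set of 10 antiviral genes of the type I interferon response was followed in neutrophils of the mouse ileum after allogeneic hematopoietic cell transplantation (allo-HCT): Isg15, Ifit1, Ifit2, Ifit3, Rsad2, Oasl1, Oasl2, Oas3, Irf7 and Usp18. They are 10 of the 23091 genes in the tables, were chosen by name, and all 10 were found. BALB/c recipients aged 7 to 9 weeks received 2 irradiation doses of 5 Gy and then bone marrow from C57BL/6 donors aged 7 to 10 weeks. The 10 control libraries came from recipients of 5000000 bone marrow cells alone. The 12 libraries of acute graft-versus-host disease (aGVHD) came from recipients of the same marrow plus 400000 donor T cells. Cells were sorted on day 21 by the labels' gate CD45+H2kb+CD11b+Ly6G+, in which H2kb marks donor origin, and were read by CEL-Seq2, a plate method that counts tagged transcript molecules per cell. Irradiation and donor marrow were thus shared by both groups, and no untransplanted sample was analysed here.

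Type I interferons bind a receptor on nearly every cell, and transcription factors activated by the receptor then bind interferon-stimulated response elements in the promoters of antiviral genes. The products act at many steps of a viral life cycle, and some of the same genes also respond to interferon-gamma, the interferon made by activated T cells and natural killer cells. Neutrophils are known to carry such transcripts in infection and in sterile inflammation.

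The promoters of some of these genes hold the element through which the pathway is known to act. RefSeq promoter windows of 300 bases on GRCm38.p6, from 250 bases before each gene's start, were found for 9 of the 10 genes, all but Usp18. The core of the interferon-stimulated response element, GAAA and GAAA with any 2 bases between them, was searched on both strands. It was present in windows of 5 of these 9 genes, against 3.99% of all 27025 genes and 3.44% of all 32851 windows. One match per gene is shown in the direction of the gene, with the motif or its reverse complement in capitals, to show where the element lies in these 5.
Isg15: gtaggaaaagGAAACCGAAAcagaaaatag
Oas3: gcagggaggaGAAAACGAAAgtgaagggag
Ifit1: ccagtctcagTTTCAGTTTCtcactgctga
Ifit3: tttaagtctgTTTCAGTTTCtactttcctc
Rsad2: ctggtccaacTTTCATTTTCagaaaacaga
The windows lie at chr4:156200871-156200900 (Isg15, minus strand), chr5:120777715-120777744 (Oas3, minus strand), chr19:34640794-34640823 (Ifit1, plus strand), chr19:34583397-34583426 (Ifit3, plus strand) and chr12:26456553-26456582 (Rsad2, minus strand). Isg15 held 3 overlapping matches that began 78, 72 and 66 bases before the start. Ifit1 and Ifit3 held 2 matches each, and Oas3 and Rsad2 held 1 each. These letters were not found in the windows of Oasl1, Oasl2, Irf7 and Ifit2. The motif TTCNNNGAA, the core of a gamma-activated site, was found for 1 of the 9 genes, Ifit2. It was found for 9.55% of all genes and in 8.30% of all windows. A match describes the sequence and is not a measured binding site.

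The tables hold 4224 well barcodes, and 1383 had at least 500 transcripts, 358 in control and 1025 in aGVHD libraries. Libraries held 11 to 60 such cells in control and 74 to 95 in aGVHD, and their totals were 45607 to 233719 and 215945 to 360054 transcripts. Gene models without a name took 32.2% to 78.7% of the transcripts of a library, so levels are given as CPM, the transcripts of a gene scaled to 1000000 transcripts of named genes. Against its markers the gate was mixed: 661 cells fell into neutrophil-like clusters (152 control, 509 aGVHD), 46 resembled macrophages or monocytes, 151 resembled B or plasma cells, 28 resembled epithelial cells, and 497 stayed in clusters without a name. Unnamed clusters 5 and 14 (125 and 18 cells) had 8 and 4 neutrophil markers at 1.5 times the other cells' level or more. No other class had more such markers in either cluster, so the unnamed cells may include neutrophils. The 10 genes and all other interferon lists were kept out of the clustering. Library titles fall into 2 sets, one carrying a date and one beginning with G1, and both sets hold both groups. The labels do not link libraries to animals; p-values therefore cover the variation among libraries alone, and part of it may be technical.

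Isg15 and Rsad2 gave most transcripts of the 10. Isg15, a ubiquitin-like protein that is attached to other proteins, was read 1723 times in 606 of the kept cells. Rsad2, or viperin, which makes a nucleotide that stops viral RNA synthesis, was read 1051 times in 363 cells. Oasl2, an oligoadenylate synthetase-like protein, followed with 690 transcripts, and Irf7, the transcription factor that amplifies type I interferon genes, with 400. Oas3, a synthetase whose product activates RNase L, gave 243 transcripts, and Ifit1, which binds viral RNA caps, gave 230. The rarest were Oasl1 with 170, Ifit3 with 148, Ifit2 with 65 and Usp18 with 30. Usp18, which removes Isg15 from proteins and restrains the interferon receptor, had a row in 14 of the 22 tables.

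Across all gated cells 6 of the 10 genes passed the filter on low counts, and all 6 had a higher fitted level in aGVHD, but none passed the test. Oasl2 came closest. It lay at 68.7 to 354 CPM in control libraries (median 152) and at 207 to 542 CPM in aGVHD libraries (median 327). All 12 aGVHD libraries were above the control mean of 180 ± 92.4 CPM (SD, n = 10), 6 were above the highest control, and the groups overlapped. Its reads may be shared in part with those of the related Oasl1. The log2 fold change was 0.71 ± 0.23 (SE), with limma's adjusted p = 0.056. This p fell to 0.043 with no scaling beyond the library total, and to 0.025 without control replicate 7. The adjusted p for Oasl2 ran from 0.023 to 0.699 over the alternatives, the largest in the G1 title set alone.

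Ifit1 lay at 0 to 137 CPM in control libraries (median 33.9) and at 33.4 to 331 CPM in aGVHD libraries (median 109). It was listed at 0 in 2 control libraries and in no aGVHD library, and 10 of 12 aGVHD libraries were above the control mean. Its log2 fold change was 1.13 ± 0.42 (SE), with limma's adjusted p = 0.0957, and 1.28 with adjusted p = 0.039 without aGVHD replicate 10. Oas3 lay at 0 to 164 CPM in control libraries (median 47.0) and at 26.7 to 267 CPM in aGVHD libraries (median 98.0). Its fitted difference was 1.06 ± 0.44 (SE) on the log2 scale, with adjusted p = 0.128. The control and aGVHD values overlapped for both genes.

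Isg15 lay at 213 to 1226 CPM in control libraries (median 549) and at 376 to 2048 CPM in aGVHD libraries (median 933). Only 2 of 12 aGVHD libraries were above the highest control, and the log2 fold change was 0.66 ± 0.28 (SE), with limma's adjusted p = 0.143. Irf7 lay at 0 to 588 CPM in control libraries and at 62.5 to 425 CPM in aGVHD libraries, with a log2 fold change of 0.50 ± 0.33 (SE) and adjusted p = 0.362. Rsad2 lay at 137 to 941 and at 162 to 1024 CPM, a log2 fold change of 0.29 ± 0.33 (SE) with adjusted p = 0.652. The highest control for Irf7, replicate 5, held 12 kept cells, and no aGVHD library exceeded it; aGVHD replicates 5 and 8 exceeded the next control at 298 CPM. For Rsad2 1 aGVHD library exceeded the highest control. In bulk sums of a gate, fewer cells of a type and less RNA per cell cannot be told apart.

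The other 4 genes did not pass the filter. Ifit3, a partner of Ifit1 whose reads may be shared with the near-identical Ifit3b, had a mean of 39.1 ± 52.6 CPM in control (SD, n = 10) and 81.5 ± 74.8 CPM in aGVHD libraries (SD, n = 12), and Ifit2 had 14.3 ± 16.3 and 29.6 ± 23.8 CPM. Oasl1, which limits Irf7 translation in mice, had 92.7 ± 167 and 80.0 ± 51.6 CPM, and the control mean rested on 1 library of 12 cells at 546 CPM. Usp18 had 14.2 ± 23.1 and 15.02 ± 10.5 CPM, and was listed at 0 in 6 of 10 control and 2 of 12 aGVHD libraries. A total of 3 transcripts corresponds to 12.8 to 353 CPM in these libraries, so such genes were near the limit of detection in the small ones. Counting error alone is covered by that limit.

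**Figure D1:**
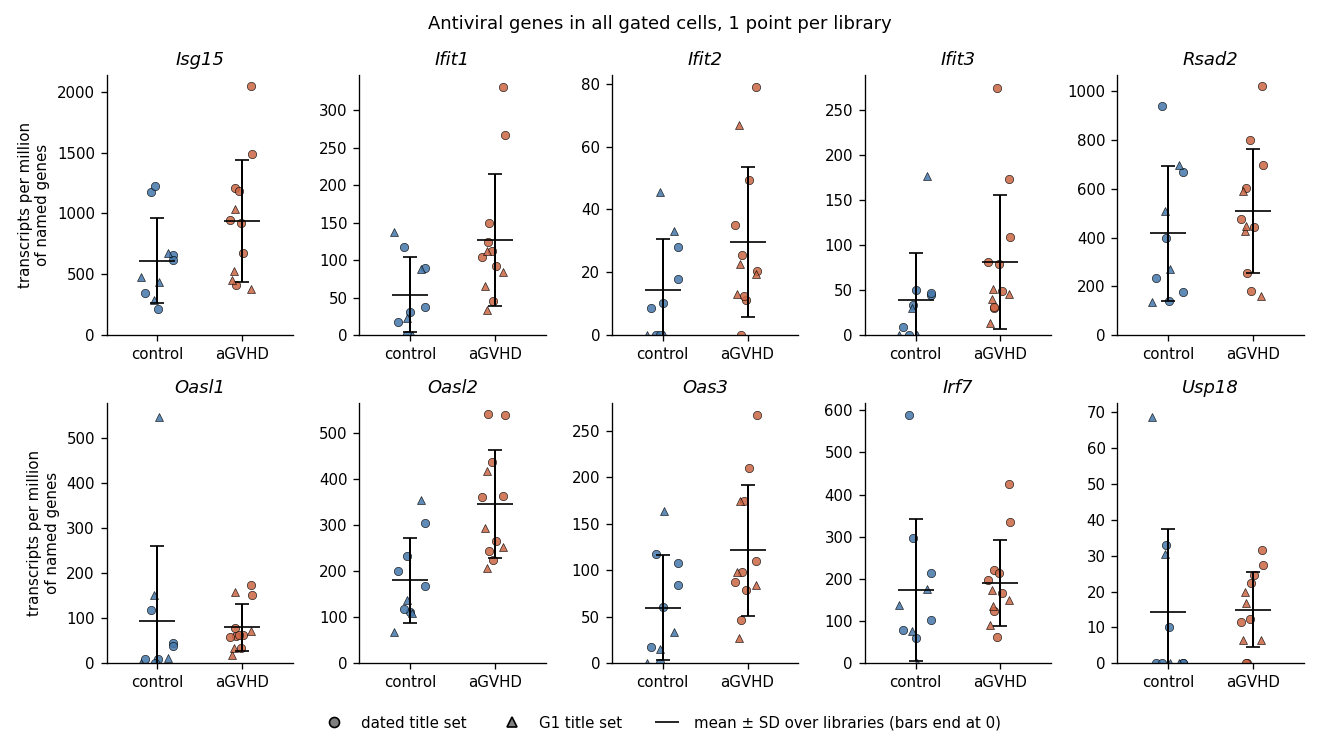
Level of each of the 10 genes in all gated cells, in CPM (vertical axis, a linear scale for each gene), with 1 point per library, circles for the dated and triangles for the G1 title set. Black lines give the mean and SD of 10 control and 12 aGVHD libraries, and the groups overlap for every gene.

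As a background, 8.22% of the 1715 genes tested in all gated cells passed the test (72 higher and 69 lower), against 0 of the 6 antiviral genes. An unadjusted p under 0.05 by limma was found for 4 of the 6, against 425 of the 1715 (24.8%). The median log2 fold change of the 6 was 0.69, and that of all tested genes was 0.04. Without the filter on low counts 4 of the 10 passed (Isg15, Ifit1, Oasl2 and Oas3), in a fit that called 1795 of 16089 genes and moved the median of all genes to -0.56. Among 14 tested genes of a list of 50 other antiviral interferon-stimulated genes, 1 rose and none fell: Ifi204, a DNA-binding protein, at 1.16 ± 0.31 (SE) on the log2 scale. Of 7 tested Schlafen and Ifitm genes, 4 rose (Slfn1, Slfn2, Slfn4 and Ifitm1), by 1.17 to 1.41 on the log2 scale. Of 10 tested interferon-gamma GTPases and chemokines only Gbp7 passed, at 1.01 ± 0.26 (SE), and of 13 interferon signalling genes Stat3 rose by 0.67 and Irf8 fell by 1.29. Irf8 is also on the list of dendritic cell markers, of which 2 of 4 tested fell (Irf8 and Tcf4), with a list median of -0.95. The 13 markers of that list summed to 0.0547% to 0.241% of named transcripts in control libraries (median 0.149%) and to 0.0358% to 0.111% in aGVHD libraries (median 0.0692%), with none at 0, and their part in the Irf8 value was not tested.

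The mean share of neutrophil-like cells was higher in aGVHD libraries, but the groups overlapped and the difference was not tested. The share was 39.6% ± 9.15 of kept cells in control (SD, n = 10) and 49.6% ± 14.9 in aGVHD libraries (SD, n = 12). The highest control, replicate 4, stood at 54.8%, and the lowest aGVHD library, replicate 12, at 26.2%. The summed transcripts of 23 neutrophil markers made up 2.24% to 4.47% of named transcripts in control and 3.69% to 11.3% in aGVHD libraries, with none of the markers at 0. Mitochondrially encoded transcripts took 15.3% ± 3.10 of named transcripts in control and 10.8% ± 3.42 in aGVHD libraries. Their part in the differences of the antiviral genes was not tested.

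Within neutrophil-like cells, in the 6 control and 12 aGVHD libraries with at least 10 of them, none of 4 tested members passed. Isg15 lay at 308 to 1569 CPM in control (median 894) and at 435 to 3178 CPM in aGVHD libraries (median 1189), a log2 fold change of 0.50 ± 0.34 (SE) with limma's adjusted p = 0.556. Irf7 lay at 48.6 to 334 CPM and at 114 to 617 CPM, a log2 fold change of 1.11 ± 0.53 (SE) with adjusted p = 0.397, and 11 of 12 aGVHD libraries were above the control mean. Oasl2 lay at 279 to 540 CPM and at 249 to 753 CPM, a log2 fold change of 0.29 ± 0.25 (SE) with adjusted p = 0.693. For Rsad2 the ranges were 180 to 1269 CPM and 132 to 1759 CPM, and the log2 fold change was 0.02 ± 0.49 (SE) with adjusted p = 0.996. The 2 groups overlapped for each of these genes. Only 0.136% of the 737 genes tested passed here, which is 1 gene, so a count of 0 of 4 says little. An unadjusted p under 0.05 by limma was found for 1 of the 4, Irf7, against 91 of the 737 (12.3%).

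The other 6 members did not pass the low-count filter in neutrophil-like cells and were not tested in the main fit. Oasl1 lay at 24.3 to 69.7 CPM in the 6 control libraries and at 0 to 339 CPM in the 12 aGVHD libraries, 9 of which were above the highest control. The control values rested on 8 Oasl1 transcripts in all, against 96 in aGVHD libraries. Without the filter limma's adjusted p for Oasl1 was 0.323. In all gated cells 0 of 12 aGVHD libraries were above the highest control for Oasl1. Oas3 lay at 24.3 to 244 and at 19.1 to 372 CPM, and Ifit1 at 0 to 214 and at 38.2 to 494 CPM. Ifit3 lay at 0 to 240 and at 14.6 to 376 CPM, and Ifit2 at 0 to 104.6 and at 0 to 123 CPM. Usp18 was listed at 0 in 4 of 6 control and 4 of 12 aGVHD libraries and reached 60.03 and 55.1 CPM. Among aGVHD libraries replicate 5 had the highest summed level of the 10 genes, 7497 CPM, and replicate 7 the lowest, 1674 CPM.

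The title sets gave these values separately. In all gated cells the log2 fold change of Isg15 was 0.85 ± 0.36 (SE) for dated and 0.41 ± 0.39 (SE) for G1 libraries. For Oasl2 it was 0.76 and 0.62, for Ifit1 1.54 and 0.67, for Oas3 1.04 and 1.35, and for Irf7 0.65 and 0.49. Rsad2 was 0.65 for dated and -0.20 for G1 libraries. In neutrophil-like cells Rsad2 was 0.38 and -0.84, Oasl2 0.47 and -0.14, Isg15 0.44 and 0.59, and Irf7 1.59 and 0.17. The difference between the sets did not pass for any member by limma's interaction term: the adjusted p-values were 0.885 to 0.995 in all gated cells, and each was 0.991 in neutrophil-like cells.

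Pooled over libraries, the summed level of the 10 genes was highest in neutrophil-like cells among the named classes. It was 2924 CPM in neutrophil-like cells (95% Poisson interval 2819 to 3032), 1293 CPM in macrophage/monocyte-like cells (1169 to 1427), 849 CPM in B or plasma cell-like cells (740 to 970) and 400 CPM in epithelial cell-like cells (326 to 486). Clusters without a name stood at 1986 CPM (1870 to 2108). Neighbours in this order had intervals that did not overlap, but these intervals cover counting error only, and the pooled values mix libraries that differ in level and class makeup. Macrophage/monocyte-like cells were the only class compared with neutrophil-like cells within libraries. Isg15 followed the same order, at 1057, 475, 259.5 and 188 CPM in the named classes. Ifit2 and Oasl1 did not separate neutrophil-like from macrophage/monocyte-like cells, at 31.8 and 35.8 CPM for Ifit2 and 103 and 94.4 CPM for Oasl1.

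**Figure D2:**
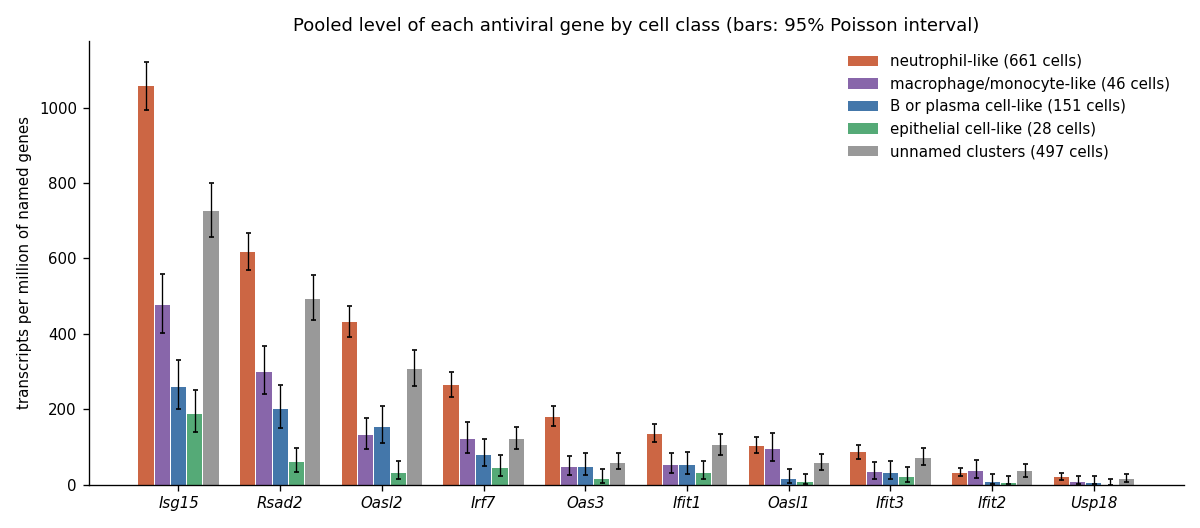
Pooled level of each gene by cell class, in CPM on a linear axis, with 95% Poisson intervals that cover counting error only. The neutrophil-like bar is the highest for 9 genes; for Ifit2 the macrophage/monocyte-like and unnamed bars are higher, with overlapping intervals.

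Compared within the same 8 libraries, the level in macrophage/monocyte-like cells was below that in neutrophil-like cells for 2 of 3 tested members. Oasl2 averaged 110 ± 87.4 CPM in macrophage/monocyte-like and 411 ± 139 CPM in neutrophil-like cells (SD, n = 8), was lower in 8 of 8 libraries, and had a log2 difference of -1.65 ± 0.35 (SE) with limma's adjusted p = 0.000527. Isg15 averaged 411 ± 434 and 940 ± 368 CPM and was lower in 7 of 8 libraries, a log2 difference of -1.19 ± 0.43 (SE) with adjusted p = 0.0221. Rsad2 averaged 271 ± 222 and 524 ± 409 CPM, a log2 difference of -0.69 ± 0.30 (SE) with adjusted p = 0.0551. Of the 605 genes tested 33.9% were lower and 26.8% higher in macrophage/monocyte-like cells, 367 in all (60.7%), and their median log2 difference was -0.23. The Isg15 call was lost without control replicate 1 (adjusted p = 0.059), control replicate 4 (0.051), aGVHD replicate 3 (0.061) or aGVHD replicate 11 (0.061), and Rsad2 passed without aGVHD replicate 1 (0.027) or 4 (0.012). Among 4 processing alternatives the Isg15 call held in 3, with limma's adjusted p up to 0.0674, and the Oasl2 call held in 4. The comparison rests on 34 macrophage/monocyte-like and 323 neutrophil-like cells.

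Other interferon-related genes split by direction between these classes. Slfn4, Ifitm1, Slfn1, Ifitm2, Irf1, Trim30a and Ifi47 were lower in macrophage/monocyte-like cells, with log2 differences of -1.06 to -3.06. Cxcl9, a chemokine that draws T cells, was higher by 2.45 ± 0.45 (SE), and Unc93b1, which carries nucleic acid receptors to endosomes, was higher by 1.12 ± 0.26 (SE). Psmb8, a subunit of the immunoproteasome, was higher by 0.81 ± 0.29 (SE). Each of these passed limma's test at the adjusted threshold of 0.05.

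Among neutrophil-like clusters the summed level of the 10 genes ran from 2008 to 4044 CPM. Cluster 7, with 112 cells led by Carns1, Mctp2 and Nfe2 and with Oas3 among its leading genes, was the highest, at 4044 CPM (3748 to 4357). Cluster 3, with immediate early genes such as Egr1 and Dusp1 among its leading genes, stood at 3508 CPM, and cluster 2 at 2825 CPM. Cluster 9, which had the granule genes Ngp, Camp and Ltf of younger neutrophils and held 87 aGVHD and 3 control cells, stood at 2626 CPM. Cluster 4, led by the cytokine genes Lif, Tnf, Ccl4 and Ccl3, was the lowest at 2008 CPM (1827 to 2201). Oas3 differed most in proportion: 352 CPM in cluster 7, 256 CPM in cluster 9 and 52.9 CPM in cluster 4. Cluster values pool libraries and are descriptions.

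Within single cells the 10 genes were sparse. To compare cells of different depth each cell was thinned at random to 500 transcripts. In thinned neutrophil-like cells Isg15 was seen in 21.5%, Rsad2 in 13.01%, Oasl2 in 12.3%, Irf7 in 8.93%, Ifit1 in 5.60%, Oas3 in 4.39%, Ifit3 in 3.03%, Oasl1 in 1.97%, and Ifit2 and Usp18 in 0.605% each. Unthinned, Isg15 was seen in 55.5% of the 661 cells and Usp18 in 2.57%. The 10% of cells with most of these transcripts held 43.4% of them, and the largest number in 1 cell was 41.

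Some pairs of the genes, those with Isg15 among them, were detected in the same cells more often than the share in other cells, and other pairs were not. Of 142 thinned cells with Isg15, 23.2% also had Rsad2, against 10.2% of 519 cells without it. Oasl2 was seen in 24.6% and 8.86%, Irf7 in 16.9% and 6.74%, Ifit3 in 9.15% and 1.35%, and Oas3 in 7.75% and 3.47%. Oas3 was seen less often with Oasl2, in 2.47% of 81 cells with it (2 cells) and 4.66% of 580 without it. Ifit1 was seen in 6.17% and 5.52% of these cells. Compared within 14 libraries, 53.2% of Isg15-positive and 32.5% of Isg15-negative cells had at least 1 of the other 9 genes, and the share was higher in 12 of 14 libraries (permutation test, two-sided p = 0.00673, adjusted over 3 genes 0.0117). For Rsad2 the shares were 65.7% and 40.8%, higher in 8 of 8 libraries (exact permutation test, two-sided p = 0.00781, adjusted 0.0117). For Oasl2 they were 59.7% and 42.7%, higher in 6 of 9 libraries (exact permutation test, two-sided p = 0.0938, adjusted 0.0938).

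These shares depend on how depth is matched, since unnamed gene models take a different part of each cell. With cells thinned to 500 transcripts of named genes, which leaves 611 of the 661 cells, at least 1 other member was seen in 57.0% of Isg15-positive and 42.8% of Isg15-negative cells, higher in 13 of 15 libraries (permutation test, two-sided p = 0.0485, adjusted over 4 genes 0.0833). The shares for Rsad2 were then 66.1% and 50.5%, higher in 10 of 13 libraries (permutation test, two-sided p = 0.0300, adjusted 0.0833). The order for Oas3 beside Oasl2 reversed at this depth, by pooled cells: 10.4% of 106 cells with Oasl2 and 6.93% of 505 without it. Ifit1 was seen in 7.55% and 3.76% of them. All 9 other genes were more frequent beside Isg15 at either depth, by pooled cells. For the rarest genes this rested on few cells. At 500 transcripts Ifit2 was seen in 1 of 142 cells with Isg15 and 3 of 519 without it, and Usp18 in 3 and 1.

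**Figure D3:**
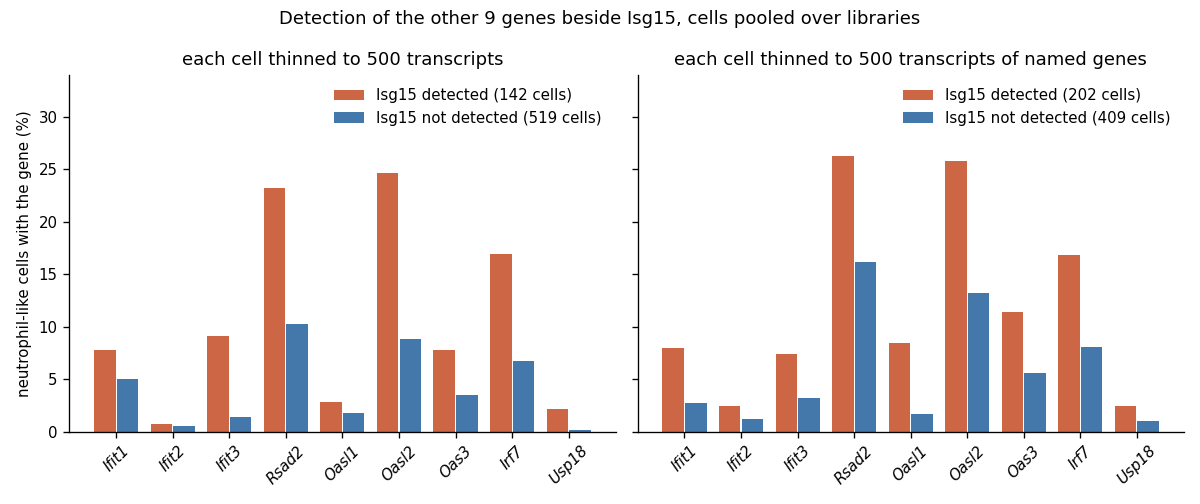
Share of neutrophil-like cells, in percent, in which each of the other 9 genes was detected, for cells with Isg15 (left bar of a pair) and without it (right bar), pooled over libraries; cells were thinned to 500 transcripts in the left panel and to 500 transcripts of named genes in the right. In both panels each gene is more frequent beside Isg15, for Rsad2 23.2% against 10.2% in the left panel. Ifit2 and Usp18 were each seen in only 4 cells in the left panel.

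Neutrophil-like cells with 2 or more of the 10 genes differed from cells with none in other interferon-related genes. The comparison was made within 12 libraries (10 aGVHD, 2 control) with at least 5 cells of each status, 97 positive and 244 negative cells, with the 10 genes left out of the test. Of 226 genes tested, 20 were higher and 13 lower in positive cells, which is 8.85% and 5.75%. Gbp2, an interferon-inducible GTPase, averaged 2792 ± 955 CPM in positive and 966 ± 517 CPM in negative cells (SD, n = 12); all 12 libraries shared the direction (12 of 12), with a log2 difference of 1.504 ± 0.19 (SE) and limma's adjusted p = 3e-05. Ifi47, another such GTPase, averaged 1308 ± 686 and 432 ± 215 CPM and was higher in 11 of 12 libraries, with a log2 difference of 1.71 ± 0.27 (SE) and adjusted p = 0.000216. Slfn4, a Schlafen gene of myeloid cells, averaged 2119 ± 733 and 804 ± 456 CPM and was higher in 12 of 12 libraries, at 1.37 ± 0.21 (SE) and adjusted p = 0.000216.

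Further genes were higher in positive cells. Samhd1, which depletes nucleotides that viruses need, was higher by 1.17 ± 0.23 (SE), and Trim30a, an interferon-inducible ubiquitin ligase family member, by 0.91 ± 0.19 (SE). Cd274, which encodes the checkpoint ligand PD-L1, was higher by 0.89 ± 0.19 (SE), and Irg1, which makes itaconate, by 0.75 ± 0.16 (SE). Wfdc17, Tgm2, Mxd1, Asprv1, Btg1, Hdc, Srgn and Plac8 were higher by 0.48 to 1.12. Past these 15 by p, Marcksl1, Ifitm3, B2m, Ifitm1 and Themis2 also passed, and B2m, the light chain of MHC class I, was higher by 0.42 ± 0.12 (SE).

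Lower in positive cells were 9 mitochondrially encoded genes, from mt-Nd3 at -0.95 ± 0.21 (SE) to mt-Rnr2 at -0.34 ± 0.10 (SE). The cytokine genes Ccl3 and Il1a had log2 differences of -1.38 ± 0.46 (SE) and -1.03 ± 0.26 (SE), and Cdkn1a and Arpc1b -0.91 and -0.59. The lower and the higher genes both depended on how status was set. With status set at 500 transcripts of named genes, at 1000 transcripts or by at least 1 gene, 5 of 12, 4 of 13 and 3 of 13 of the lower genes that were tested were still lower. Of the higher genes that were tested, 8 of 16, 8 of 17 and 13 of 20 were still higher. The mitochondrially encoded genes lower in these fits numbered 5 of 11, 3 of 12 and 3 of 12 tested. Leaving out control replicate 2 or 7 or aGVHD replicate 7, 9, 10 or 12 ended the calls of both Ccl3 and Cdkn1a. The Ccl3 call also ended without aGVHD replicate 1, 6 or 8, and the Cdkn1a call without aGVHD replicate 11, with limma's adjusted p up to 0.137 and 0.158. The mt-Rnr1 call ended without control replicate 2 or 7 or aGVHD replicate 5, 6, 8, 11 or 12 (adjusted p up to 0.085), mt-Cytb without control replicate 2 or 7 or aGVHD replicate 7, mt-Rnr2 without control replicate 7 or aGVHD replicate 12, Arpc1b without aGVHD replicate 9, and Plac8 without aGVHD replicate 6 or 7.

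**Figure D4:**
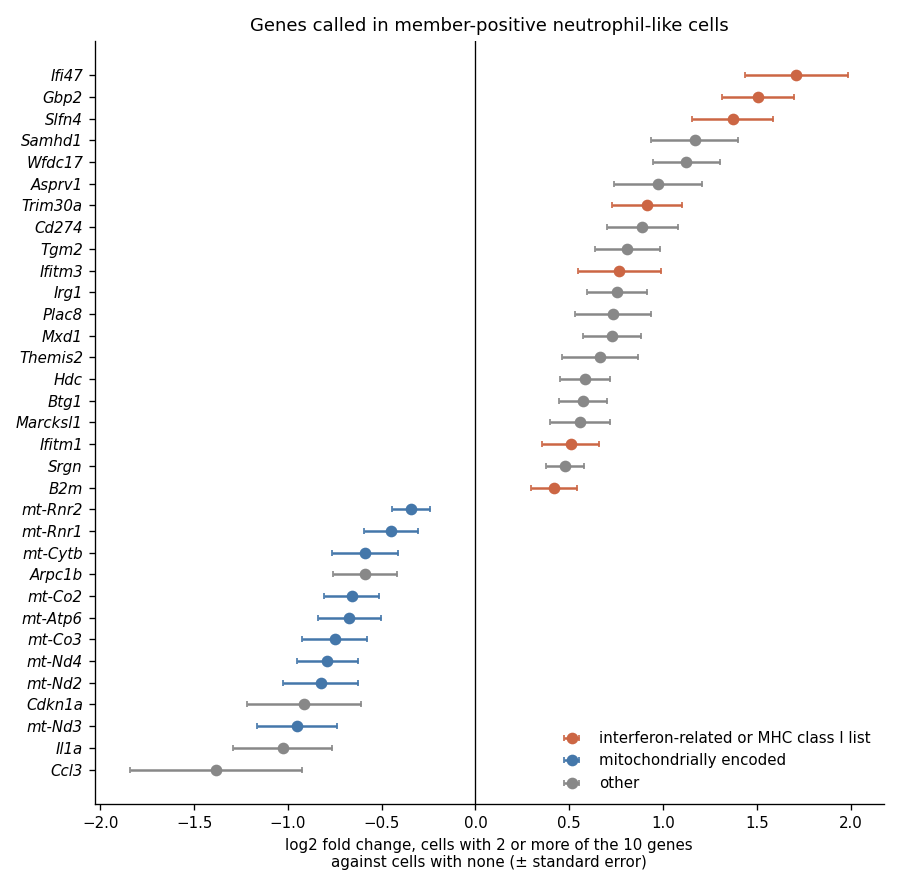
Log2 difference with its standard error for the 33 genes that passed the test between neutrophil-like cells with 2 or more of the 10 antiviral genes and cells with none, within 12 libraries; colours mark interferon-related or MHC class I lists, mitochondrially encoded genes and others. Ifi47 and Gbp2 lie farthest to the right at 1.71 and 1.504, and the mitochondrially encoded genes lie left of 0.

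A wider filter, added after seeing the data, kept 1347 genes with at least 60 transcripts and let more of the fixed lists be counted. Of these genes 2.6% were higher in positive cells. Of 13 tested other antiviral interferon-stimulated genes 6 were higher and none lower (Ifi204, Rtp4, Zbp1, Isg20, Trim30a and Ifi27l2a), with a list median of 0.88 against 0.04 for all genes tested. Of 10 tested interferon-gamma GTPases and chemokines 5 were higher and none lower (Gbp2, Ifi47, Cxcl10, Cxcl9 and Gbp4), with a median of 1.08. None of 11 interferon signalling genes, 9 MHC class I genes, 2 nucleic acid sensors or 10 granule genes passed, with medians of 0.39, 0.54, 0.12 and -0.05. Of 8 Schlafen and Ifitm genes 2 were higher (Slfn4 and Ifitm3), with a median of 0.21, and of 28 neutrophil alarmins and late genes 4 were higher (Wfdc17, Asprv1, Mxd1 and Hdc), with a median of 0.16. Of 36 NF-kB and cytokine genes 1 was higher (Btg1) and 2 were lower (Il1a and Ccl3), with a median of 0.03. Of the genes called before, 16 of 20 higher and 11 of 13 lower were still called; among those that ended were the calls of B2m (0.35, limma's adjusted p = 0.151) and Ifitm1 (0.51, adjusted p = 0.0873). The lists were chosen with earlier results of these data known.

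Positive and negative cells had nearly the same total depth, with medians of 2455 and 2337 transcripts, but named genes made up a median of 74.4% and 61.5% of it. Cluster 7 held 32.0% of positive and 16.4% of negative cells, and cluster 9 held 16.5% and 15.6%. Of the 20 genes higher in positive cells, 19 were tested without cluster 9 and 17 passed. With status set at 500 transcripts of named genes, 16 were tested and 8 passed. The part of the share of named genes in the other differences was not tested. Lcn2, a granule gene, was seen in 30.9% of positive and 20.9% of negative thinned cells, and Cxcl10 in 19.6% and 9.02%.

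More neutrophil-like cells carried at least 1 of the 10 genes in aGVHD when each cell was thinned to 500 transcripts; the difference missed the threshold at 1000 transcripts and at 500 transcripts of named genes. At 500 transcripts the share ran from 0% to 52.9% in control (median 29.7%) and from 35.1% to 63.6% in aGVHD libraries (median 48.8%). The lowest control, with no positive cell, had 3 neutrophil-like cells, and the groups overlapped. The means were 30.8% ± 14.7 (SD, n = 10) and 49.4% ± 8.44 (SD, n = 12), a difference of 18.6 percentage points (permutation test within title sets, two-sided p = 0.00082, adjusted over 3 thresholds 0.00246). Dated libraries alone gave 18.7 points (exact permutation test, two-sided p = 0.01998), G1 libraries alone 17.6 points (exact permutation test, two-sided p = 0.0286), and in libraries with at least 10 such cells 11.9 points (exact permutation test, two-sided p = 0.0222). Pooled, 54 of 152 control cells (35.5%, exact 95% interval 27.9 to 43.7) and 246 of 509 aGVHD cells (48.3%, 43.9 to 52.8) were positive, intervals that cover counting error only.

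Named genes made up a median of 48.6% ± 11.3 of the transcripts of neutrophil-like cells in control and 63.7% ± 14.3 in aGVHD libraries (SD over 10 and 12 libraries). With cells thinned to 500 transcripts of named genes, 60.1% ± 20.7 of control and 62.4% ± 14.1 of aGVHD cells were positive, a difference of 2.34 points (permutation test, two-sided p = 0.764); 21 control and 29 aGVHD cells were too shallow to enter. At 1000 transcripts the shares were 54.1% ± 23.4 and 67.5% ± 13.2, a difference of 13.5 points (permutation test, two-sided p = 0.0583). Unthinned, the shares were 68.0% ± 13.97 and 84.2% ± 7.76 (permutation test, two-sided p = 0.00319).

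**Figure D5:**
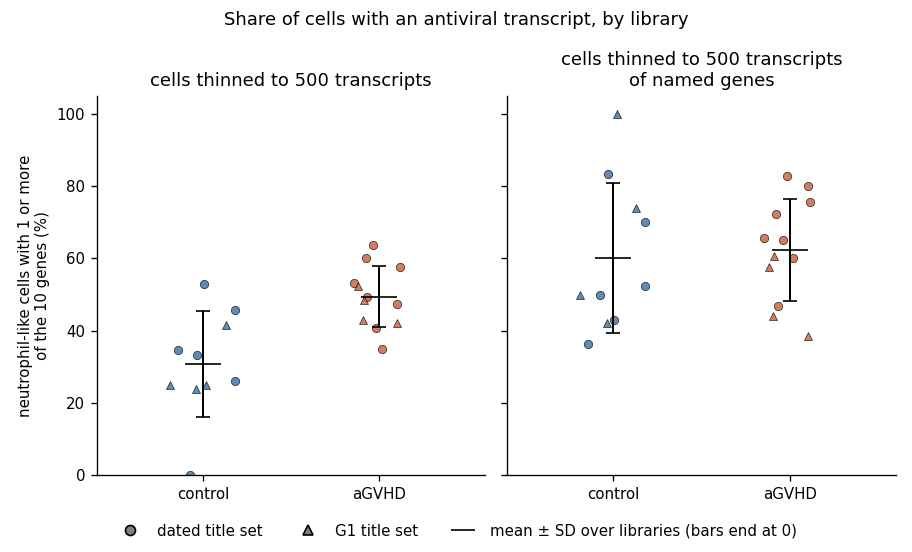
Share of neutrophil-like cells, in percent, with at least 1 of the 10 genes, 1 point per library with the mean and SD, in 10 control and 12 aGVHD libraries. Means are 30.8% and 49.4% with cells thinned to 500 transcripts (left) and 60.1% and 62.4% with cells thinned to 500 transcripts of named genes (right).

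Cells with 2 or more of the genes made up 11.98% ± 12.1 of control and 18.4% ± 8.59 of aGVHD neutrophil-like cells at 500 transcripts, a difference of 6.39 points (permutation test, two-sided p = 0.147, adjusted 0.220). Cells with 3 or more made up 5.42% ± 5.80 and 7.76% ± 6.82, a difference of 2.34 points (permutation test, two-sided p = 0.414, adjusted 0.414). At 1000 transcripts both differences were larger: 14.3 points for 2 or more (permutation test, two-sided p = 0.0176) and 6.51% ± 7.84 against 17.7% ± 11.9, or 11.2 points, for 3 or more (permutation test, two-sided p = 0.0105). At 500 transcripts of named genes they were 3.19 and -1.21 points (permutation test, two-sided p = 0.664 and 0.825). These values at other depths were not adjusted. None of the 152 control neutrophil-like cells thinned to 500 transcripts had more than 4 distinct members, and 4 of 509 aGVHD cells did, the highest with 7. In all gated cells at that depth, 2 of 358 control cells had 5 members. Of 1025 aGVHD cells 4 had 5 members and 1 had 7.

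Signal outside cells was present. In each library the 96 barcodes of the numbering with the smaller total were taken as background, chosen here by their totals since no label names them. Those of them under 500 transcripts, 960 in control and 1150 in aGVHD, made up 1.42% to 15.99% of the transcripts per library. They carried 36 transcripts of the 10 genes in control and 46 in aGVHD libraries. Their level was 578 ± 278 CPM in control (SD, n = 10) and 483 ± 347 CPM in aGVHD libraries (SD, n = 12), against 1658 ± 770 and 2441 ± 1061 in the kept cells. In control replicate 1 the background level, from 3 transcripts, was above that of the kept cells, at 803 against 699 CPM. It was below that of the kept cells in every other library. At least 1 of the 10 genes was seen in 12.6% of thinned B or plasma cell-like cells (median depth 4332 transcripts) and in 17.9% of epithelial cell-like cells (13537 transcripts), against 45.4% of neutrophil-like cells (2270 transcripts). The well barcodes are the same set in every library, so shared barcodes show nothing about shared cells.

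The ligands of the pathway were nearly unread. Among interferon genes with a row, Ifnb1 gave 1 transcript, Ifna1 1 and Ifna2 3, in all kept cells. Ifng gave 25 transcripts in 4 cells, 24 of them in control libraries and none in neutrophil-like cells. Other genes of the pathway were present: in neutrophil-like cells Irf1 gave 1586 transcripts, Irf9 133, Stat2 90, Ifnar2 154 and Ifnar1 39.

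Over the 22 libraries the genes whose log2 CPM followed the mean of the 10 most closely were Irf1 (Spearman's rho 0.84), Smox (0.84), Upp1 (0.82), Msrb1 (0.80) and Parp10 (0.80). Among the 10 genes themselves the closest pair was Oasl1 and Oas3 (0.66) and the least alike Oas3 and Usp18 (-0.11). These are descriptions over libraries that differ in depth, cell number and class makeup.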

How the data were processed

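The 22 tables were made by the authors with CEL-Seq2, per the labels' protocols, with bcl2fastq 2.17.1.14 and BWA 0.6.2-r126, per the submitters' processing notes; the genome build and annotation are not given in the sources used here. The deposited values are estimated transcripts corrected for repeated use of 4096 molecular identifiers (the values are those that whole numbers of identifiers give) and were rounded to whole transcripts here. Members and lists were chosen with earlier results of these data known. Barcodes with at least 500 transcripts were kept. Clustering (Pearson residuals of 163 marker and list genes, 12 components, Leiden at resolution 1.0) left out all interferon lists; no doublet caller was run. Transcripts of named genes were summed per library and fitted with limma 3.58.1 voom (R 4.3.3), with trimmed-mean scaling, a low-count filter near 10 transcripts, the title set as a covariate and Benjamini-Hochberg adjustment over all genes tested; comparisons within libraries had the library as a block. A log-scale test was chosen because the values are corrected estimates. Status of a cell was set on 500 thinned transcripts and its full-depth transcripts were summed. The tests were checked on simulated data: at a log2 change of 2, 99% of 200 changed genes were recovered for all gated cells and 97% for neutrophil-like cells, and at a change of 1, 52% and 43%; of the calls made there, 8.48% and 3.45% were false. The simulation used the same assumed dispersion for every gene and no title set effect, so these rates may not hold for single genes. Shares were tested by permuting groups within title sets, exactly or with 100000 resamples. No pair of libraries looked like a repeat deposit: genes with equal counts made up at most 4.54%. Named genes were all 10 members, the genes of fixed lists that passed, the 15 smallest p in each direction between positive and negative cells, and the 5 genes most like the members over libraries.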

Additional observations from a re-analysis of the deposited data

Results flagged for a closer look

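In 5 of the 25 groups of 4 to 10 libraries checked, all of them control groups, 1 library lay far from the others by Dixon's ratio. Groups of 12 aGVHD libraries were not checked. Chance alone gives about 1 in 20 for independent groups of normally distributed values. These groups share libraries and some hold values of 0, so 5 of 25 is not read as an excess. In all gated cells Ifit3 was at 177 CPM in control replicate 7 (next 50.6 CPM), Oasl1 at 546 CPM in control replicate 9 (next 152 CPM), Irf7 at 588 CPM in control replicate 5 (next 298 CPM) and Usp18 at 68.7 CPM in control replicate 10 (next 33.1 CPM). In neutrophil-like cells Ifit2 was at 104.6 CPM in control replicate 4 (next 30.8 CPM). Control replicates 5, 9 and 10 held 11 or 12 kept cells each.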

How the results depend on the processing

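The difference in cells with at least 1 of the genes missed the threshold at 1000 transcripts (13.5 points) and at 500 transcripts of named genes (2.34 points), and was 15.1 to 21.0 points with each library left out. For at least 2 genes it passed in all gated cells (5.36 points), unthinned (13.7) and at 1000 transcripts (14.3), and ran from 5.06 to 8.77 points with each library left out, passing only without control replicate 6 (8.77).

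Genes called in all gated cells numbered 4 in the G1 set alone, 42 in the dated set alone, 16 in libraries with at least 20 cells, 21 with a quality filter, 60 without cluster 10, 62 in the G1 set without a low-count filter and 1795 without that filter in both sets. Leaving out each library gave 53 to 199 calls, with 53, 84, 82 and 83 without control replicates 1, 4, 6 and 9. In neutrophil-like cells calls numbered 0 in the G1 set, with each cell's own markers or at clustering resolution 0.6, 2 in libraries with at least 20 cells or without cluster 9, 3 with interferon lists in the clustering, with limma trend or with unnamed gene models, 5 without the filter, 78 in the G1 set without it, and 0 to 3 with each library left out. Between positive and negative cells 33 of 226 tested genes were called in the main fit. Calls numbered 10 of 156 at 3 or more genes (3 libraries) and 15 of 232 at 1000 transcripts. They numbered 19 of 164 at 500 transcripts of named genes, 7 of 37 with thinned sums and 50 of 1347 with the wider filter. With each library left out there were 26 to 37 calls. Macrophage/monocyte-like against neutrophil-like cells gave 6038 calls without the filter and 327 to 424 with each library left out. The interaction gave 20 calls without the filter in all gated cells and 1 in neutrophil-like cells. The causes were not tested.

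Correlations over 6 pairs did not settle whether title numbers pair libraries. Same-number correlations were -0.063 to 0.175, against a mean of -0.014 for different numbers, and 1 of 6 controls was closest to its own number. The replicate block gave 24 calls against 5 without it in all gated cells, and 8 against 0 in neutrophil-like cells.

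Rsad2 changed sign in the G1 set in all gated cells (-0.20). In neutrophil-like cells its log2 fold change near 0 was -0.84 in the G1 set, -0.48 there without the filter, -0.079 at resolution 0.6, -0.095 and -0.0075 in libraries with at least 20 cells and at least 5 neutrophil-like cells, -0.020 with median-of-ratios factors, -0.045 at 1000 transcripts, -0.051 without scaling, -0.0076 with the quality filter, -0.026 without cluster 9, and -0.15 to 0.29 with each library left out. Oasl2 in neutrophil-like cells was -0.14 in the G1 set, and at 3 or more genes Plac8 was -0.43 and Tgm2 -0.11. Of 955 alternatives for single genes, 810 kept direction and side of the threshold, 103 lost the call, 19 gained it and 23 reversed. Genes near 3 transcripts in a library are at the limit of this depth.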
